A study of Mus musculus with 24 samples.

Results

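The comparison set *Brd9* KD myoblasts against scr control myoblasts while both lines were kept in added Zn. Its members were the 4 RNA-seq libraries whose titles name BRD9 or SCR together with Zn, 2 replicates of each, out of 24 libraries in the series. The 4 untreated (NT) libraries of the same lines, again 2 of each, gave the same contrast without Zn, and the question was which stress genes differed with Zn but not without it, and the reverse. According to the study's methods the cells were C2C12, an established mouse myoblast line. They stably carried a lentiviral shRNA, against *Brd9* in the KD line and scrambled (scr) in the control line. They were kept in growth medium, for the treated groups with 50 µM ZnSO4 and for the NT groups with no metal, and the methods give 48 h for the metal cultures. Sample labels name primary myoblasts and a Lipofectamine knockdown instead, and a treatment tag that reads None on the Zn libraries goes against their titles, so groups were taken from the titles. The shRNA used for sequencing is not given in the sources used here, nor is the number of transduced populations behind each line. An effect of the shRNA and a property of the transduced population therefore cannot be told apart.

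Brd9 is a bromodomain protein of the ncBAF form of the SWI/SNF complexes, which move nucleosomes and so open or close promoters and enhancers. Cells meet a surplus of Zn with the transcription factor MTF1, which binds metal response elements and switches on metallothioneins that hold the ion and exporters that remove it. Other stresses have their own regulators, such as NRF2 for oxidants, HSF1 for unfolded cytosolic proteins, ATF4 for amino acid or ER stress and p53 for DNA damage, while immediate early genes such as *Fos* and *Egr1* answer growth factor and kinase signals within minutes.

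*Brd9* itself (chromosome 13, from 73937811 to 73960895 in GRCm38) was at 13.8 and 18.1 CPM in the KD libraries and 30.2 and 30.7 in the scr libraries with Zn, so the KD libraries lay below both scr libraries. CPM are counts per 1e+06 counts, scaled with TMM over the 8 libraries. The log2 fold change was -0.92 (SE 0.13, edgeR adjusted p = 0.00157) with Zn and -0.76 (edgeR adjusted p = 0.006) in NT cells. Total counts ran from 12719173 to 75179394 in the 4 Zn libraries and from 13994335 to 23054964 in the 4 NT libraries. The myoblast genes *Myod1*, *Des*, *Cdh15* and *Ncam1* were present in all 8 libraries, with *Myod1* between 71.8 and 112 CPM. *Des*, *Cdh15* and *Ncam1* were called lower in the KD in both contrasts. *Pax7*, also a myoblast marker, was called higher in both (1.42 with Zn, 1.41 in NT cells). It was at 5.41 and 2.71 CPM in the KD libraries and 1.39 and 1.73 in the scr libraries with Zn. By contrast, *Ptprc*, *Cd3e*, *Adipoq*, *Lep*, *Cdh5* and *Emcn*, which define leukocytes, adipocytes and endothelial cells, were at or near 0. Few members of those lists were expressed enough to test, and 2 of them were called in both contrasts. *Cebpa*, of the 7 adipocyte markers, was at 6.90 and 5.56 CPM in the KD libraries and 1.78 and 1.51 in the scr libraries with Zn (1.99; 1.49 in NT cells), while the summed level of its list lay between 18.8 and 25.5 CPM in the 8 libraries, most of it *Pparg*. *Kdr*, of the 5 endothelial markers, was at 0.721 and 1.73 CPM in the KD libraries and 3.78 and 4.30 in the scr libraries with Zn (-1.81; -2.58 in NT cells), and its list summed to 1.17 and 2.26 CPM in the KD against 4.71 and 4.93 CPM in scr cells. The 6 leukocyte markers summed to between 3.57 and 5.62 CPM, nearly all of it *Cd68*, and none was called. Of 8 genes marking fibroblasts, 6 were tested. With Zn 5 were higher in the KD and none lower, and in NT cells 4 were higher and 1 lower. Their summed level was 554 and 486 CPM in the KD and 346 and 332 CPM in scr cells with Zn, and 538 and 463 against 398 and 486 CPM in NT cells, where the groups overlapped, while *Dpt* and *Pi16* stayed at or below 0.37 CPM in all 8 libraries. The part of these markers in the results was not tested. In bulk RNA, fewer cells of a type and less RNA per cell cannot be told apart.

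A pair of library properties went with the groups and touch what follows. Slopes on GC content were taken relative to each gene's mean over all 24 libraries of the series. On that scale gene counts leaned towards low GC content in the scr Zn libraries, with slopes of -0.28 and -0.33 log2 CPM per 10 percentage points of GC. They leaned towards high GC content in the scr NT libraries, with slopes of 0.08 and 0.30, while the 4 *Brd9* KD libraries lay between -0.16 and -0.003. Each contrast was therefore also fitted after correcting every library for GC content and gene length. The ribosomal RNA gene *CT010467.1* was at 47689 and 16767 CPM in the scr NT libraries and between 1035 and 1451 CPM in the other 6.

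With Zn, 3483 of 15002 genes tested (23.2%) differed between *Brd9* KD and scr cells at an adjusted p under 0.05, 1894 of them higher (12.6% of those tested) and 1589 lower (10.6%). The largest rise was in *Col6a2*, a chain of collagen VI, at 48.7 and 41 CPM in the KD libraries and 0.386 and 0.297 in the scr libraries. Neither KD library came near a scr library, and the log2 fold change was 7.15 (SE 0.17, edgeR adjusted p = 6.57e-07). Next came *Nkd2*, a Wnt pathway antagonist (6.63), *Pde3a*, a cyclic nucleotide phosphodiesterase (6.31), the matrix protein gene *Spon2* (6.29), *Igfbp3*, a carrier of insulin-like growth factors (6.10), and the Wnt antagonist gene *Dkk3* (5.83). *Nkd2* had 5 counts in both scr libraries together and *Spon2* 9, and the ratios of their CPM, KD over scr, were 110.0 (95% exact interval from counting error 46.3 to 342) and 84.3 (43.7 to 186). The strongest fall was in the kinase gene *Stk32b*, at 0.135 and 0.0752 CPM in the KD libraries and 8.77 and 8.59 in the scr libraries, with a log2 fold change of -6.19 (SE 0.32). It rested on 4 counts in the KD, and scr exceeded the KD 76.6 times (29.8 to 282). *Mmp12*, macrophage elastase, followed at 2.57 and 4.14 CPM in the KD libraries and 50.2 and 45.9 in the scr libraries (-3.88 on the log2 scale). *Csn3*, *Themis*, *Hectd2os* and the chemokine gene *Cxcl10* had log2 fold changes between -3.45 and -2.89. All 12 genes were also called, in the same direction, in NT cells, where the values were 6.43 for *Col6a2*, -5.82 for *Stk32b* and -1.32 for *Themis*, the smallest of the 12.

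Stress genes were described as 9 lists with 269 members in all, of which 249 passed the filter on low counts with Zn. The 20 others, among them *Mt3*, *Mt4*, *Hspa1a* and *Mx1*, had at most 38 counts in any Zn library. Of the 249, 55 were higher and 48 lower in the KD with Zn, which is 41.4% called against 23.2% of all genes, and their median log2 fold change was -0.02 against 0.00 over all genes tested. In NT cells 37 of 245 were higher and 85 lower, with a median of -0.17. Over all 14277 genes tested in NT cells 4165 were called (29.2%), 2157 higher (15.1%) and 2008 lower (14.1%). Among 245 members tested in both contrasts, 63 were called in both, 38 with Zn only, 59 in NT cells only and 85 in neither. Over all 14170 genes tested in both, 12% were called in both, 12% with Zn only and 17.2% in NT cells only. The KD and scr libraries did not overlap for 184 of the 249 with Zn (63.0% of all genes) and for 68.7% of all genes in NT cells. Of the 63 stress genes called in both contrasts, 62 moved in the same direction, the exception being the heat shock co-chaperone gene *Chordc1* (-0.32 with Zn, 0.77 in NT cells). Of the 38 called with Zn only, 26 were higher in the KD, and 50 of the 59 called in NT cells only were lower.

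A gene called in 1 contrast and not in the other need not differ between them, so the difference itself was tested over the 8 libraries. It was called for 7 of the 38 genes called with Zn only (*Slc39a11*, *Hmox1*, *Pdia6* and *Phlda3* with a positive difference, *Dnajb4*, *Dnajb9* and *Rrm2b* with a negative one), for 21 of the 59 called in NT cells only and for 12 of the 63 called in both, against 8.51% of all genes (1294 of 15206, of which 547, or 3.60%, were positive and 747, or 4.91%, negative). Of the 38 genes called with Zn only, 23 had the same sign in NT cells. The classes also went with GC content: the 26 genes called with Zn only that were higher had a median GC of 53.8%, the 12 that were lower 42.0%, the 9 genes called in NT cells only that were higher 42.1% and the 50 that were lower 53.6%. After correction for GC content and length, 90 stress genes were called in both contrasts (89 in the same direction), 28 with Zn only and 36 in NT cells only, beside 25.3% of all genes called with Zn (12.2% higher, 13.1% lower) and 27.5% in NT cells (14.0% higher, 13.5% lower). Over all genes 15.4% were then called in both, 10.7% with Zn only and 12.1% in NT cells only. Of the 38, 17 stayed called with Zn only, 12 became called in both, 3 in NT cells only and 6 in neither. Of the 59, 26 stayed called in NT cells only. The difference between the contrasts was then called for *Mt1* and *Mt2* alone among the stress genes, and for 16 genes (0.105%) of all 15206, 6 positive (0.0395%) and 10 negative (0.0658%). *Dipk2a* and *Rbis*, among these 16, had no matched GC content and were not corrected themselves.

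**Figure D1:**
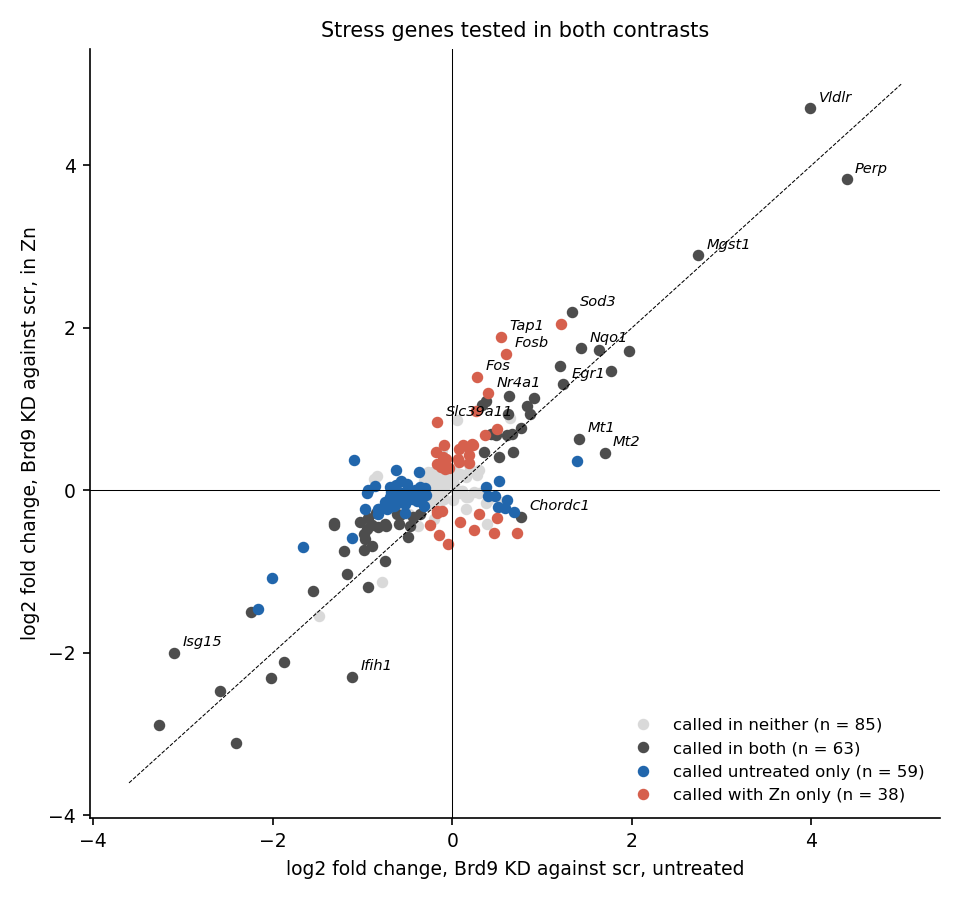
The log2 fold change of *Brd9* KD against scr in NT cells (horizontal) is plotted against that with Zn (vertical) for the 245 stress genes tested in both contrasts, with 1 point a gene, colours for the 4 classes and a dashed line of equal change. Of the 63 genes called in both 62 lie in the quadrants of equal sign, *Mt1* and *Mt2* lie below it, and *Fosb*, *Fos* and *Slc39a11* lie above it.

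**Figure D2:**
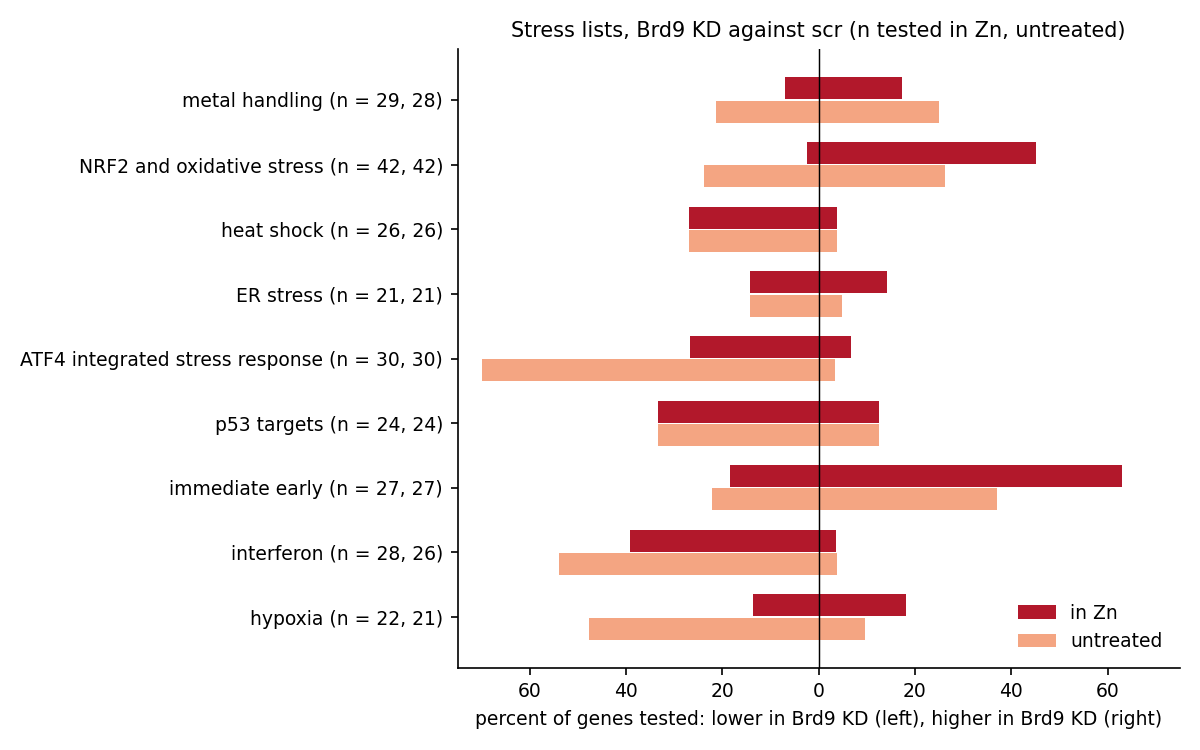
Bars give the percent of tested genes of each stress list called lower (left of 0) or higher (right of 0) in *Brd9* KD cells, with Zn (dark) and in NT cells (light), and the numbers tested beside each name. Among these 9 lists the immediate early list has the largest share called higher with Zn (17 of 27) and the ATF4 list the largest share called lower in NT cells (21 of 30).

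Metallothioneins, which buffer Zn and Cu in the cytosol, were higher in *Brd9* KD cells under both conditions, and the margin, taken as a ratio, was smaller with Zn. Taken as a gap in CPM it was larger with Zn for *Mt1* and *Mt2*. *Mt2* (chromosome 8, from 94172664 to 94173568) was at 289 and 263 CPM in the KD libraries and 206 and 202 in the scr libraries with Zn, and at 66.2 and 59.8 CPM in KD and 18 and 20.2 in scr cells without it. KD libraries lay above scr libraries each time, and every Zn library lay above every NT library. The log2 fold change was 0.47 (SE 0.07, edgeR adjusted p = 0.00264) with Zn and 1.70 (edgeR adjusted p = 0.000102) without, a difference of -1.23 (SE 0.13, edgeR adjusted p = 0.00673). *Mt1* (chromosome 8, from 94179082 to 94180327) was at 509.8 and 444 CPM in the KD libraries and 325 and 302 in the scr libraries with Zn and at 167 and 152 CPM in KD and 54.7 and 63.3 in scr without, in the same order as *Mt2*. Its log2 fold change was 0.64 with Zn and 1.42 without, and the difference was -0.78 (SE 0.14, edgeR adjusted p = 0.0429). After correction for GC content and length the differences were -1.61 for *Mt2* (edgeR adjusted p = 5.4e-05) and -1.05 for *Mt1* (0.0012). The *Mt2* call with Zn was lost without scr Zn replicate 2 (edgeR adjusted p = 0.051). The *Mt2* difference missed the threshold without scr Zn replicate 1 (0.0577), and that of *Mt1* did so without any 1 of 5 libraries (*Brd9* KD NT replicate 2, scr NT replicate 2, *Brd9* KD Zn replicate 1 and either scr Zn replicate), where it lay between -0.90 and -0.72, or with all 24 libraries in the fit (edgeR adjusted p = 0.0549).

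*Slc30a1* (chromosome 1, from 191906767 to 191913247), the plasma membrane Zn exporter and a known MTF1 target, was at 33.1 and 30.2 CPM in the KD libraries and 31.2 and 28.7 in the scr libraries with Zn, where the groups overlapped, and at 16.8 and 14.9 CPM in KD and 10.7 and 11.1 in scr without. Its log2 fold change was 0.12 with Zn (edgeR adjusted p = 0.371) and 0.52 without (0.033), and the difference between them did not pass (-0.40, SE 0.15, edgeR adjusted p = 0.102). The Zn importer gene *Slc39a10*, which MTF1 is known to hold down when Zn is high, was at 20.5 and 18.4 CPM in the KD libraries and 19.4 and 19.5 in the scr libraries with Zn and at 47.6 and 45.9 CPM in KD and 38.4 and 32.6 in scr without, so every Zn library lay below every NT library. It was called in NT cells only (0.38, edgeR adjusted p = 0.0444), and not after correction for GC content and length. *Mtf1* itself passed the test in neither contrast, at 45.9 ± 2.77 CPM in the KD and 46.8 ± 3.34 CPM in scr cells with Zn (SD, n = 2).

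The promoters of *Mt1*, *Mt2* and *Slc30a1* are shown because metal response elements are the sites through which MTF1 acts on them. The core was searched as TGCACNC and TGCGCNC on both strands in the 250 bases before the RefSeq start (GRCm38.p6). The gene positions given above are from GENCODE M21 and have other starts, so the numbers of matches hold for these windows only. At least 1 match stood in 21.4% of 32851 promoters, and at least 3 in 1.26%. Capitals mark the matches, of which *Mt1* had 1, *Mt2* 3 and *Slc30a1* 1.
Mt1 (chr8:94178839-94179088, plus strand): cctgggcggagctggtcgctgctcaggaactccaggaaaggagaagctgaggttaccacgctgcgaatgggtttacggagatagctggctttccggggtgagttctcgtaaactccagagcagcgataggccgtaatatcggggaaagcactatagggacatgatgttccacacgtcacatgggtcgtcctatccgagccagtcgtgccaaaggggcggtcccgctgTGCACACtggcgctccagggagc
Mt2 (chr8:94172368-94172617, plus strand): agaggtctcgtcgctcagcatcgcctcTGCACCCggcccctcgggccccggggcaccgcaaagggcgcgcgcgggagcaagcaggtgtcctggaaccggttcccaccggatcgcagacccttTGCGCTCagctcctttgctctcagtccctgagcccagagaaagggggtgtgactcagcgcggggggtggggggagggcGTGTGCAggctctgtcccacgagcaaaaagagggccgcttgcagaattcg
Slc30a1 (chr1:191906531-191906780, plus strand): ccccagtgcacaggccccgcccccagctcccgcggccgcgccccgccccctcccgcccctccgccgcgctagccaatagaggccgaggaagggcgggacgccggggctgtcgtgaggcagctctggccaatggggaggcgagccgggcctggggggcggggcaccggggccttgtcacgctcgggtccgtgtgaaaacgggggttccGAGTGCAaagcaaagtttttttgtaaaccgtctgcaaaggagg
With the 50 bases after the start, which are not printed, the matches numbered 3 in *Mt1*, 4 in *Mt2* and 2 in *Slc30a1*, against at least 2 in 7.11% of all promoters. A match is only a string of letters in this window.

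Across the 29 metal handling genes tested with Zn, 5 were higher and 2 lower in the KD, near the share over all genes. In NT cells 7 of 28 were higher and 6 lower (46.4%, against 29.2% of all genes). The median log2 fold change was 0.00 with Zn and -0.11 in NT cells. *Slc39a11*, a Zn importer of the Golgi and nucleus, was called with Zn only, at 14.7 and 12 CPM in the KD libraries and 7.18 and 7.99 in the scr libraries. Groups did not overlap with Zn, and at 11 and 10.1 CPM in KD and 10.7 and 12.5 in scr they did in NT cells. Its log2 fold change was 0.84 with Zn and -0.17 without, a difference of 1.01 (edgeR adjusted p = 0.0429; 0.0828 after correction for GC content and length). *Slc39a14*, an importer of Zn and iron, was higher in both (0.68 and 0.49). *Cox17*, a Cu chaperone for cytochrome oxidase, was lower in both (-0.57 and -0.49).

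The reverse class held 9 metal handling genes (32.1%, against 17.2% of all genes), 4 higher and 5 lower in NT KD cells. *Ccs*, the Cu chaperone of superoxide dismutase 1, was at 14.7 and 11.5 CPM in KD and 22.5 and 26.9 in scr cells without Zn and at 15.7 and 14 CPM in the KD libraries and 15.9 and 14.7 in the scr libraries with it. In NT cells it was lower, with a fall of 0.94 on the log2 scale, whereas the 4 Zn libraries overlapped. Without *Brd9* KD NT replicate 2 the NT call was lost (edgeR adjusted p = 0.051). The difference between the contrasts was 0.94 (edgeR adjusted p = 0.0429; 0.0866 after correction for GC content and length). *Slc39a7*, which releases Zn from the ER, and *Commd1*, a factor in Cu export, followed the same pattern with differences of 0.88 and 0.70. *Slc30a4*, an exporter into vesicles, went the other way, with 0.69 in NT cells, -0.27 with Zn and a difference of -0.96, and none of these 3 differences was called after the correction.

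**Figure D3:**
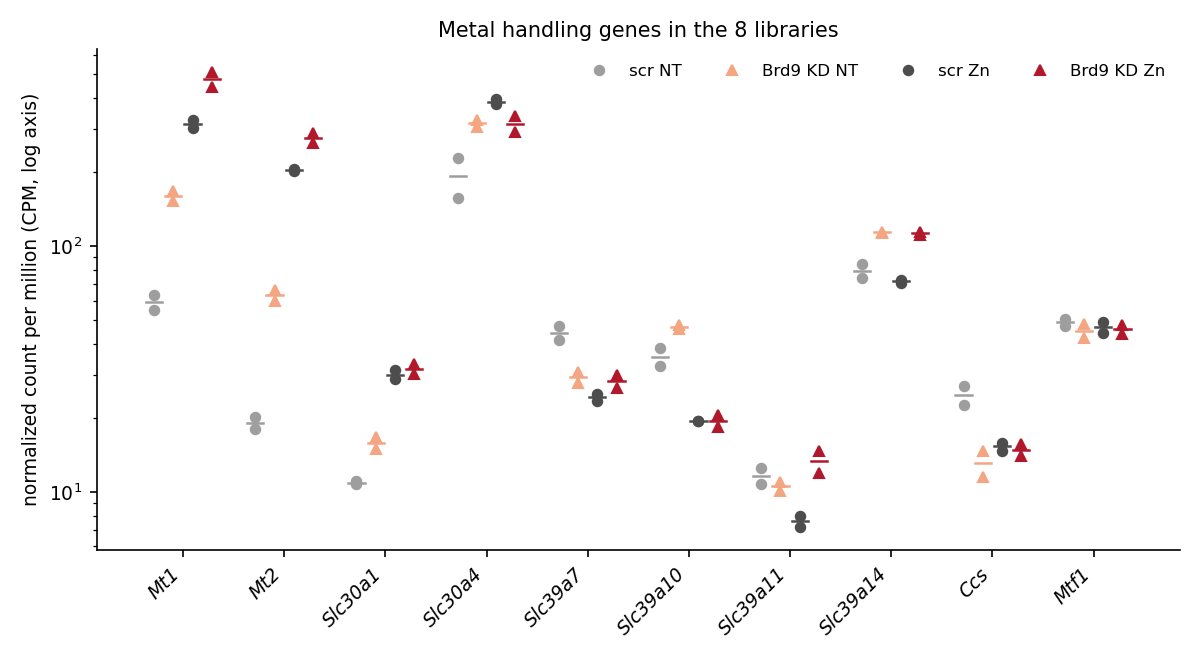
Points give the CPM (log axis) of 10 metal handling genes in each of the 8 libraries, 2 per group, and short lines give the group means. *Mt1*, *Mt2* and *Slc30a1* are higher in all 4 Zn libraries than in all 4 NT libraries, *Slc39a10* is lower in them, and on this log axis the gap between *Brd9* KD and scr for *Mt2* is wide in NT cells and narrow with Zn.

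More genes of the NRF2 and oxidative stress list were higher in *Brd9* KD cells with Zn, 19 of 42 tested, than lower, which held for 1, *Slc7a11*, the cystine importer (-0.54). In NT cells 11 were higher and 10 lower, and the medians were 0.23 and 0.08. Called shares were 47.6% with Zn and 50% in NT cells, against 23.2% and 29.2% of all genes. After correction for GC content and length 19 were higher and 3 lower with Zn, and 17 higher and 8 lower in NT cells. The largest changes were shared by both conditions. *Mgst1*, a microsomal glutathione transferase, was at 6.22 and 5.26 CPM in the KD libraries and 0.927 and 0.715 in the scr libraries (2.89 with Zn, 2.74 without). *Nqo1*, a quinone reductase, was at 57.6 and 37.6 CPM in the KD libraries and 15.3 and 14.1 in the scr libraries, so both KD libraries stood above scr but apart from each other (1.75 and 1.43). *Sod3*, the extracellular superoxide dismutase, was at 53 and 42.9 CPM in the KD libraries and 11.4 and 10.3 in the scr libraries, with no overlap, and its log2 fold change was 2.19 with Zn and 1.33 without. The difference of 0.86 had an edgeR adjusted p of 0.0429, and of 0.0712 after the correction. *Gclc* and *Gclm*, the subunits that start glutathione synthesis, rose in both conditions, with log2 fold changes of 0.42 and 0.47 with Zn.

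Of the 42 genes of the NRF2 and oxidative stress list, 9 (21.4%) were called with Zn only, against 12% of all genes tested in both contrasts. After correction for GC content and length 4 (9.52%) were called with Zn only, against 10.7% of all genes. *Hmox1*, heme oxygenase 1, was among the 9. It was at 88.3 and 73.7 CPM in the KD libraries and 60.0 and 53.1 in the scr libraries with Zn and at 56.6 and 51.7 CPM in KD and 55.1 and 58.2 in scr without, and its log2 fold change was 0.56 with Zn and -0.09 without. The difference of 0.64 passed at an edgeR adjusted p of 0.0431, but not after the correction (0.12). The ferritin chains *Fth1* and *Ftl1* (0.35 and 0.53 with Zn), the drug and glutathione conjugate exporter *Abcc1* (0.57) and the glutathione peroxidase gene *Gpx1* (0.50) were also called with Zn only. After correction for GC content and length *Fth1*, *Ftl1*, *Abcc1* and *Gpx1* were called in both. The 10 genes called in NT cells only (23.8% of the list, against 17.2% of all genes) were all lower there. *Gss*, glutathione synthetase, had -0.64 in NT cells and 0.01 with Zn, and the Cu,Zn superoxide dismutase gene *Sod1* had -0.41 and 0.00.

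Among the 9 stress lists, immediate early genes gave the largest share of higher genes with Zn, 17 of 27 against 5 lower, with a median log2 fold change of 0.69 (0.67 after correction for GC content and length). In NT cells 10 were higher and 6 lower, with a median of 0.27 (0.46 after the correction), and 15 of the 27 were called in both conditions, each in the same direction. Called shares were 81.5% with Zn, 59.3% in NT cells and 55.6% in both, against 23.2%, 29.2% and 12% of all genes. *Egr1* (chromosome 18, from 34859823 to 34864984), a zinc finger factor of the growth factor response, was at 100.3 and 111 CPM in the KD libraries and 40.6 and 46.1 in the scr libraries with Zn and at 63.1 and 59.1 CPM in KD and 25.8 and 25.3 in scr without. Both KD groups lay above both scr groups, with log2 fold changes of 1.31 (SE 0.09) and 1.24 (SE 0.11), and a difference of 0.08 (SE 0.14, edgeR adjusted p = 0.735). *Egr2* and *Egr3* rose by 1.72 and 1.73 with Zn, and the AP-1 gene *Fosl1* by 1.04. The ERK phosphatase genes *Dusp5* and *Dusp6* rose by 1.13 and 0.95. The AP-1 genes *Jun*, *Jund* and *Fosl2* fell in both conditions, with -0.29, -0.53 and -0.42 with Zn, as did the stress kinase phosphatase gene *Dusp1* (-0.43) and *Ccn2*, a matricellular growth factor (-1.19).

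All 7 immediate early genes called with Zn only (25.9% of the list, against 12% of all genes) were higher in the KD, and none of their differences between the contrasts passed. *Fosb* (chromosome 7, from 19302696 to 19310051) was at 6.80 and 9.25 CPM in the KD libraries and 2.47 and 2.55 in the scr libraries with Zn, and at 3.43 and 3.43 CPM in KD and 2.40 and 2.08 in scr without. The KD Zn libraries were the highest of the 8, and its log2 fold change was 1.68 (SE 0.22, edgeR adjusted p = 0.00108) with Zn and 0.60 (edgeR adjusted p = 0.121) without. The difference of 1.09 had an SE of 0.32 and an edgeR adjusted p of 0.0594. *Fos* was at 3.42 and 4.44 CPM in the KD libraries and 1.62 and 1.42 in the scr libraries with Zn and at 1.64 and 2.13 CPM in KD and 1.77 and 1.31 in scr without, where the groups overlapped. Its difference was 1.13 (SE 0.42, edgeR adjusted p = 0.101). The nuclear receptor gene *Nr4a1* showed 1.19 with Zn and 0.40 without, and *Maff*, a small MAF factor, 0.98 and 0.27. *Fosb*, *Fos* and *Nr4a1* stayed called with Zn only after correction for GC content and length, while *Maff* was then called in both. *Ier2* and *Junb* were called in both conditions with larger values with Zn, 1.10 against 0.37 and 1.05 against 0.33. These differences passed before the correction (edgeR adjusted p = 0.0429 for each) and not after it (0.146 and 0.265).

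Targets of ATF4, which raise amino acid supply and, under lasting stress, apoptosis, made up the largest number called in NT cells only, 14 of 30, all lower in the KD. This share was 46.7%, against 17.2% of all genes tested in both contrasts. In all, 21 were lower and 1 higher in NT cells, with a median log2 fold change of -0.64, against 8 lower and 2 higher with Zn and a median of -0.09. Thus 73.3% were called in NT cells and 33.3% with Zn, against 29.2% and 23.2% of all genes. After correction for GC content and length 19 were lower in NT cells and 14 with Zn, and the genes called in NT cells only were then 7 (23.3%, against 12.1% of all genes). *Ddit3* (CHOP, chromosome 10, from 127290774 to 127296288) was at 45 and 51.6 CPM in KD and 87 and 81.3 in scr cells without Zn and at 46.5 and 48.9 CPM in the KD libraries and 59 and 55.6 in the scr libraries with it. KD libraries were below scr libraries in both, with log2 fold changes of -0.82 and -0.23 (edgeR adjusted p = 0.0646 with Zn), and both scr libraries were lower with Zn than without. The difference was 0.59 (SE 0.14, edgeR adjusted p = 0.0433; 0.0535 after the correction). *Trib3*, a pseudokinase that feeds back on this pathway, was at 56.1 and 38.1 CPM in KD and 74.7 and 93.4 in scr cells without Zn and at 66.5 and 67.5 CPM in the KD libraries and 71.4 and 60.2 in the scr libraries with it, where the groups overlapped. Its difference was 0.92 (edgeR adjusted p = 0.0477; 0.159 after the correction), and its NT call was lost without *Brd9* KD NT replicate 2 (0.07). *Psph*, of serine synthesis, had -0.75 in NT cells (edgeR adjusted p = 0.063 without *Brd9* KD NT replicate 2) and -0.15 with Zn. *Atf3* and *Ddit4*, the latter an inhibitor of mTORC1, were lower in both, with -1.32 and -1.31 in NT cells and -0.43 and -0.41 with Zn. *Stc2*, a secreted glycoprotein, and *Eif2ak3* (PERK), an ER stress kinase, fell in both, with -1.55 and -1.17 in NT cells and -1.24 and -1.03 with Zn. *Vldlr*, a lipoprotein receptor, was higher in both, at 4.33 and 5.11 CPM in the KD libraries and 0.193 and 0.175 in the scr libraries with Zn (4.70). *Phgdh*, the first enzyme of serine synthesis, was higher with Zn only (0.41).

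**Figure D4:**
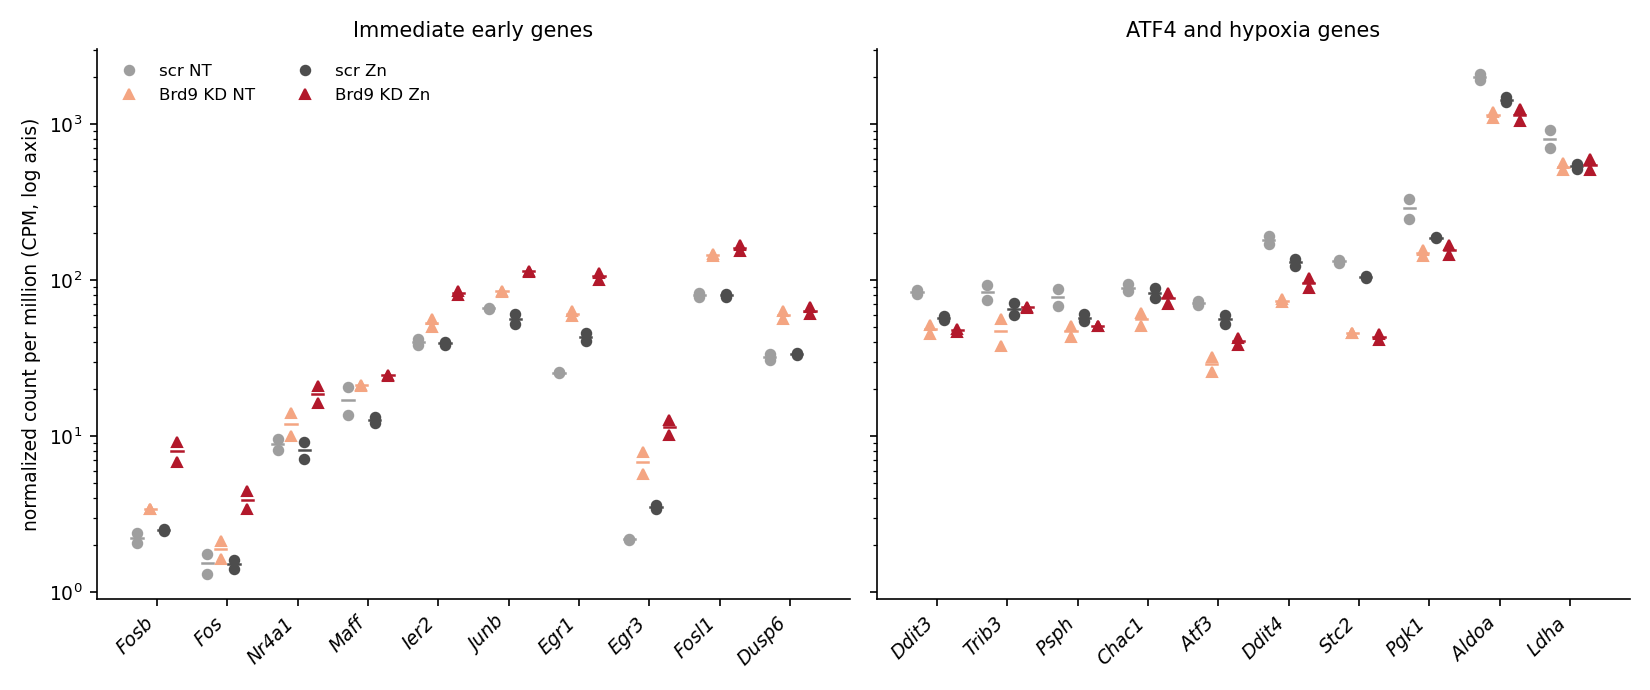
Points give the CPM (log axis) of 10 immediate early genes (left) and of 10 ATF4 and hypoxia genes (right) in each of the 8 libraries, and short lines give the group means. *Fosb*, *Fos* and *Nr4a1* are highest in the *Brd9* KD Zn libraries, and the right panel shows *Ddit3*, *Trib3* and *Pgk1* highest in the scr NT libraries.

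The hypoxia list, glycolytic enzymes and other HIF targets, had 10 lower and 2 higher of 21 in NT cells and 3 lower and 4 higher of 22 with Zn. Called shares were 57.1% and 31.8%, against 29.2% and 23.2% of all genes. After correction for GC content and length 10 were lower and 3 higher in NT cells and 8 lower and 6 higher with Zn, and 2 instead of 8 were called in NT cells only. These 2 were 9.52% of the list, against 12.1% of all genes, and the 8 had been 38.1%, against 17.2%. *Pgk1*, phosphoglycerate kinase, was at 156 and 142 CPM in KD and 246 and 331 in scr cells without Zn and at 169 and 145 CPM in the KD libraries and 187 and 188 in the scr libraries with it, so the groups did not overlap in either. Its log2 fold change was -0.98 without Zn and -0.23 (edgeR adjusted p = 0.082) with it, a difference of 0.75 (edgeR adjusted p = 0.0447; 0.0845 after correction for GC content and length). *Aldoa*, muscle aldolase, had -0.82 and -0.29, and both genes were called in both contrasts after the correction. *Ldha*, lactate dehydrogenase, had -0.62 in NT cells and 0.07 with Zn and stayed called in NT cells only. *Egln3*, an oxygen sensing prolyl hydroxylase, was called with Zn only at 42.2 and 32.7 CPM in the KD libraries and 24.5 and 23.8 in the scr libraries (0.68 with Zn, 0.37 without) and in both after the correction. *Car9*, a carbonic anhydrase at the cell surface, had 2.05 with Zn at 0.31 to 1.73 CPM. *Adm*, the vasodilator adrenomedullin, was higher with Zn at 0.676 and 0.752 CPM in the KD libraries and 0.0772 and 0.0270 in the scr libraries and was not tested in NT cells for low counts. *Pfkfb3*, which drives glycolysis through fructose bisphosphate, rose in both (0.77 and 0.76).

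More heat shock genes were lower than higher in the KD, 7 against 1 of 26 with Zn and again 7 against 1 in NT cells. That is 30.8% called each time, against 23.2% of all genes with Zn and 29.2% in NT cells. After correction for GC content and length, 5 were lower and 1 higher with Zn, and 7 lower and 2 higher in NT cells. *Hspb1* and *Hspb8*, small heat shock proteins that hold unfolded proteins in muscle, fell in both conditions. *Hspb1* was at 209.8 and 179 CPM in the KD libraries and 349 and 314 in the scr libraries with Zn (-0.74; -0.99 in NT cells), and *Hspb8* at 109.9 and 89 CPM in the KD libraries and 173 and 168 in the scr libraries (-0.74; -1.20). *Hspa1b*, the stress-inducible HSP70, was the 1 higher with Zn, at 9.28 and 8.50 CPM in the KD libraries and 5.68 and 5.19 in the scr libraries, a log2 fold change of 0.75 (edgeR adjusted p = 0.00905; 0.085 without scr Zn replicate 2) against 0.50 in NT cells (0.0725). It was called in both after correction for GC content and length. *Dnaja1*, *Dnajb4* and *Hsp90aa1* were lower with Zn only, with -0.29, -0.34 and -0.53, with positive values in NT cells. After the correction *Hsp90aa1* was still called with Zn only and the other two in neither. *Chordc1*, called in opposite directions, had a difference of -1.09 that turned to 0.07 after the correction.

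Of the ER stress genes 3 were higher and 3 lower of 21 with Zn, near the share over all genes, and 1 higher and 3 lower in NT cells. *Dnajb9*, an ER co-chaperone induced by XBP1, was lower with Zn only (-0.49; 0.24 in NT cells) and was called in neither contrast after correction for GC content and length. *Calr*, the ER lectin chaperone calreticulin, was higher with Zn (0.43), and *Edem1*, which marks glycoproteins for degradation, was lower in both (-0.33 and -0.44). The XBP1 and BiP genes, *Xbp1* and *Hspa5*, passed in neither contrast (-0.11 and -0.04 with Zn). Among p53 targets 3 were higher and 8 lower of 24 with Zn, and 3 and 8 in NT cells. That is 45.8% called each time, against 23.2% and 29.2% of all genes. The kinase gene *Plk2* and the death receptor gene *Eda2r* fell in both, and *Eda2r* was at 49.5 and 49.9 CPM in the KD libraries and 96.4 and 88.8 in the scr libraries with Zn (-0.87), and *Perp*, a desmosome and apoptosis gene, rose from near 0, at 2.75 and 2.41 CPM in the KD libraries and 0.0772 and 0.229 in the scr libraries. *Cdkn1a*, the cell cycle inhibitor p21, was called in NT cells only (-0.56; -0.04 with Zn), and *Mdm2*, which degrades p53, with Zn only (-0.27; -0.17 in NT cells).

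More interferon genes were lower than higher in *Brd9* KD cells, 11 against 1 of 28 with Zn and 14 against 1 of 26 in NT cells, and 10 were called in both, in the same direction. With Zn 42.9% were called and in NT cells 57.7%, against 23.2% and 29.2% of all genes. The medians were -0.68 with Zn and -0.84 in NT cells, against 0.00 and 0.01 over all genes. *Ifit1*, an inhibitor of viral translation, was at 5.45 and 2.63 CPM in the KD libraries and 26 and 22.9 in the scr libraries with Zn (-2.47; -2.59 in NT cells). *Ifih1* (MDA5), a sensor of double-stranded RNA, was at 2.30 and 3.16 CPM in the KD libraries and 12.6 and 13.8 in the scr libraries and fell in both (-2.29 with Zn, -1.12 without). *Oasl2* and *Rsad2*, further antiviral genes, had -2.31 and -3.11 with Zn, although *Rsad2* did not exceed 2.78 CPM in any library. For these 4 genes the KD and scr libraries did not overlap with Zn. *Isg15*, a ubiquitin-like modifier, was lower in both, at 2.07 and 2.33 CPM in the KD libraries and 8.81 and 8.94 in the scr libraries with Zn and 1.74 and 1.44 CPM in KD and 12.1 and 14.8 in scr without, and its difference of 1.10 (edgeR adjusted p = 0.0465) did not pass after correction for GC content and length (0.139). *Ifit2* was called with Zn only (-0.66; -0.04 in NT cells), although not with all 24 libraries in the fit (edgeR adjusted p = 0.067). *Tap1*, a peptide transporter for antigen presentation, was the 1 higher with Zn, at 1.44 and 2.11 CPM in the KD libraries and 0.309 and 0.566 in the scr libraries (1.89; 0.54 in NT cells, not called). *Ifi27* was called in NT cells only, at 21 and 20.2 CPM in KD and 35.2 and 43 in scr cells, against 23.4 and 20.2 CPM in the KD libraries and 23 and 22.8 in the scr libraries with Zn, where the groups overlapped. Its difference was 0.92 (edgeR adjusted p = 0.0429; 0.0636 after the correction).

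Outside the stress lists, more muscle genes were lower than higher in the KD and more matrix genes higher than lower, with Zn and without. Of 37 muscle genes tested with Zn 17 were lower and 6 higher, and of 35 in NT cells 18 were lower and 5 higher. That is 62.2% and 65.7% called, against 23.2% and 29.2% of all genes. *Ttn*, titin, was at 871 and 1603 CPM in the KD libraries and 3718 and 4870.5 in the scr libraries with Zn, with no overlap although the KD libraries lay far apart (-1.76, SE 0.26). The sarcomeric genes *Acta1*, *Actc1* and *Myl1* fell with log2 fold changes of -1.25, -1.58 and -1.69, as did *Myf5*, a myogenic determination factor (-0.89). *Id1* and *Id3*, inhibitors of the myogenic factors, rose by 1.00 and 0.71. Of 39 matrix genes 25 were higher and 4 lower with Zn (19 and 4 of 38 in NT cells), which is 74.4% and 60.5% called. *Col6a1* and *Col6a3*, the partners of *Col6a2*, rose by 5.09 and 2.15, the basement membrane genes *Nid2* and *Lama4* by 2.43 and 5.04, and *Mmp2*, a gelatinase, by 2.44. *Postn* (periostin) and *Fn1* (fibronectin) fell (-1.91 and -0.47). Beside these matrix genes, the summed level of the fibroblast markers given above was higher in the KD with Zn and overlapped between the groups in NT cells.

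Of 26 SWI/SNF subunits tested with Zn 2 were higher and 2 lower, *Brd9* included (15.4%, against 23.2% of all genes). In NT cells 5 were higher and 3 lower (30.8%, near the 29.2% of all genes). Among them *Pbrm1*, a subunit of the PBAF form, was at 197 and 222 CPM in KD and 141 and 97.1 in scr cells without Zn and at 189 and 233 CPM in the KD libraries and 232 and 242 in the scr libraries with it (0.79 and -0.14), a difference of -0.93 (edgeR adjusted p = 0.0454; 0.13 after correction for GC content and length). *Smarca2*, an ATPase of the complexes, was at 17.6 and 16.5 CPM in the KD libraries and 4.67 and 5.03 in the scr libraries with Zn (1.84; 2.01 in NT cells), *Smarcd1* rose (0.39) and *Phf10* fell (-0.28). S phase genes had 9 higher and 3 lower of 43 with Zn, and 6 and 3 in NT cells, which is 27.9% and 20.9% called, against 23.2% and 29.2% of all genes. All 8 called with Zn only, among them *Mcm5* (0.39), *Chaf1a* (0.41) and *Uhrf1* (0.36), were higher. Mitotic genes had 3 higher and 4 lower of 37 with Zn (18.9% called, against 23.2% of all genes). In NT cells 14 were higher and none lower (37.8%, against 29.2% of all genes). *Kif11*, a spindle motor, was at 92.5 and 110.4 CPM in the KD libraries and 138 and 142 in the scr libraries with Zn and at 94.4 and 104 CPM in KD and 78.4 and 54.2 in scr without, thus lower with Zn (-0.44) and higher in NT cells (0.57). The difference was called for 10 of the 37 mitotic genes (27.0%, against 8.51% of all genes), each time negative, and for none after correction for GC content and length. With the correction 17 were still higher in NT cells against 3 with Zn, beside 14.0% and 12.2% of all genes.

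Over all genes the difference between the contrasts followed GC content. Among 10548 protein-coding genes with a mean count of at least 50, the fifth of lowest GC had a median difference of -0.57 with 5 genes called higher and 596 lower, and the fifth of highest GC a median of 0.33 with 255 higher and 1 lower. The Spearman correlation of GC content with the log2 fold change, a description across genes that share the same 8 libraries, was 0.39 with Zn, -0.46 in NT cells and 0.72 for the difference, and after the correction -0.02, -0.003 and -0.04. The calls for the difference went from 1294 to 16, of which 14 were among the 1294, and genes with an unadjusted p under 0.05 from 4787 to 2956. In simulated counts without such a trend, with 200 genes shifted by a log2 value of 1, the test of the difference found 59.5% of them, that with Zn 71.0% and that in NT cells 76.0%. Genes left unshifted gave 9, 20 and 15 false calls in the same order, beside 119, 142 and 152 shifted genes found. In these runs false calls thus made up a larger share of the calls than the threshold of 0.05. Whether the GC lean of the scr libraries arose in the cells or in the libraries was not tested.

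**Figure D5:**
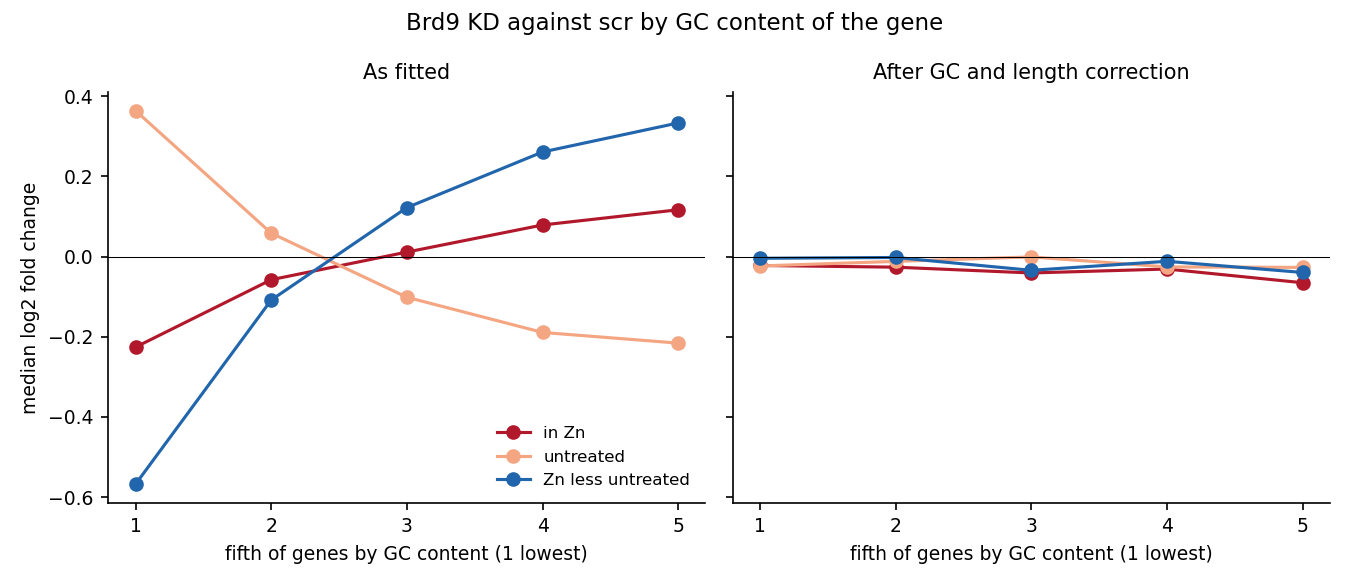
Lines give the median log2 fold change of *Brd9* KD against scr in 5 equal groups of genes by GC content, with Zn, in NT cells and for the difference of both, as fitted (left) and after correction for GC content and gene length (right). The medians of the difference run from -0.57 to 0.33 on the left, and lie between -0.04 and 0.00 on the right.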

How the data were processed

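The deposited values were raw counts of read pairs per gene symbol, in 1 table of 24 libraries. Per the study's methods, ribosomal RNA was removed with RNase H, libraries were strand-specific, STAR aligned reads to mm10 and uniquely mapped pairs were counted on their strand with featureCounts. Tool versions are not given in the sources used here. Tables of the authors' own DESeq2 comparisons were not used. The 4 Zn libraries and, separately, the 4 NT libraries were fitted with edgeR 4.0.16 (TMM, filterByExpr, quasi-likelihood test, R 4.3.3), and the difference of both contrasts over all 8. A gene was called at a Benjamini-Hochberg adjusted p under 0.05 over all genes tested, all tests being two-sided. Replicates, 2 per group, were described as biological. If they share a culture, p-values measure only the spread between these samples. The GC and length correction entered as offsets from splines of 5 degrees of freedom per library (GENCODE M21 transcripts, 53292 of 55291 symbols matched). Symbols without a match stayed in the fit uncorrected. DESeq2 1.42.0 and further settings were alternatives. Tests were checked on simulated counts. The result of 1 gene is not reported here. GC slopes used log2 CPM with a prior count of 2, less the gene's mean over all 24 libraries, in protein-coding genes that passed the filter on low counts.

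Members and gene lists were chosen with earlier results of these data known. Genes with full values were taken by rule: a fixed set around Zn response, the stress genes with the largest called differences between contrasts, the largest changes without overlap among stress genes with a mean count of at least 50 in each class and among all genes, and up to 3 called members of each list. Further list members were named after their values were seen, to show each list's range.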

Additional observations from a re-analysis of the deposited data

Results flagged for a closer look

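Each gene in this section passed the test of the difference between the *Brd9* KD contrast with Zn and the same contrast in NT cells, over 8 libraries (edgeR), and the values are differences of log2 fold changes, Zn minus NT. Among the stress genes the metallothionein genes had -1.23 (*Mt2*) and -0.78 (*Mt1*), the 2 that also passed once GC content and length were corrected for.

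Of the other stress genes, *Isg15* (1.10), *Slc39a11* (1.01), *Ccs* (0.94), *Trib3* (0.92), *Ifi27* (0.92), *Ddit4* (0.91), *Atf3* (0.89) and *Slc39a7* (0.88) were positive. The heat shock co-chaperone gene *Chordc1* (-1.09), the ribonucleotide reductase gene *Rrm2b* (-0.98) and the vesicle Zn exporter gene *Slc30a4* (-0.96) were negative. None of these 11 passed after the correction, where adjusted p ran from 0.0535 to 0.871. The 8 positive genes had a GC content of 52.2% to 58.2% and the 3 negative ones 35.7% to 41.2%, and the part of GC content in single genes was not tested further.

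The largest positive differences over all genes were in RNAs that overlap or resemble ribosomal RNA: *Gm24187* (9.09), *Mir6236* (9.02), *Gm23935* (7.69), *Gm15564* (7.47), *Lars2* (5.22) and *CT010467.1* (4.89). *Gm24187* and *Mir6236* were not tested in the Zn contrast itself for low counts. With Zn *Mir6236* had 1 and 8 counts in the KD libraries and 2 and 5 in the scr libraries. *Gm24187* had 9 and 34 against 5 and 27, and *Gm15564* 3 and 28 against 4 and 47. *Lars2* and *CT010467.1* also passed with GC content and length corrected for. *Gm24187*, *Mir6236*, *Gm23935* and *Gm15564* did not (edgeR adjusted p = 0.151, 0.0902, 0.0636 and 0.0712). The scr NT libraries stood apart in all of these RNAs. *Lars2*, which encodes a mitochondrial leucyl-tRNA synthetase, was at 1370.4 and 633 CPM there and between 25.9 and 44.9 CPM in the other 6 libraries, and what part ribosomal RNA left in those 2 libraries had in this was not tested.

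The largest negative differences were in *Depdc1a*, a mitotic gene (-3.01), the zinc finger gene *Zfp820* (-2.96), *Gm36989* (-2.76), *Gm43484* (-2.70) and *Gm38253* (-2.68). *Depdc1a* also passed with GC content and length corrected for (edgeR adjusted p = 0.0474). *Zfp820*, *Gm36989*, *Gm43484* and *Gm38253* did not (0.0727, 0.113, 0.141 and 0.108). Further genes that passed with GC content and length corrected for included the ribosomal protein gene *Rpl39* (0.91), *Rps26-ps1* (-0.59), which is named as a pseudogene and may share reads with its parent, *mt-Cytb* (-1.42) and *mt-Tl1* (-2.12) of the mitochondrial genome, the deacetylase gene *Sirt1* (-1.20) and *Gm7335* (-2.32). *Dipk2a* (-0.91) and *Rbis* (-1.58) passed in the same fit, but had no matched GC content and so were not corrected themselves.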

How the results depend on the processing

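With 2 libraries a group, counts of calls depended on the settings. For the contrast with Zn, 3483 genes were called; a replicate block gave 5566, the block with correction for GC content and length 5577, a fold change of at least 1.5 gave 1637, and leaving out 1 library 1784 to 6266. In NT cells, 4165 were called, 2502 at a fold change of at least 1.5, 994 to 5728 with a library left out, and 7415 with replicate numbers crossed between groups, an alternative chosen after seeing the data. For the difference, 1294 were called, 2578 without a filter on low counts, 16 after correction for GC content and length, 10 with the block, 6 with both, and 3 to 3659 with a library left out (the cause was not tested). Of the 1294 calls 42.3% were positive, against 33.1% with RLE size factors.

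Stress genes called with Zn only were 38, and 23 with all 24 libraries in the fit, 62 with the block, 60 with block and correction, 14 at a fold change of at least 1.5 and 18 to 70 with a library left out. Those called in NT cells only were 59, and 31, 36 and 20 with the block, the correction and both, and 10 to 76 with a library left out. Those called in both were 63, 35 at the fold minimum, and 42 to 85 with a library left out. Deviations of same-numbered replicates from their group means correlated at 0.16 to 0.26 between *Brd9* KD NT, *Brd9* KD Zn and scr Zn, and at -0.19 to -0.12 between each of these and scr NT. As not every pair was positive and no source ties the numbers to a shared culture, the fit without the block was kept. With the block the *Mt1* difference lost its call (edgeR adjusted p = 0.0732), and with block and correction it passed.

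Values near 0 changed sign: *Mtf1* with Zn was -0.0052 with DESeq2, -0.011 without the filter, -0.00077 at a mean count of at least 1, -0.057 after the correction, -0.063 with the block as well, and -0.081 to 0.078 with a library left out. *Slc39a10* with Zn ran from -0.046 to 0.089 and the *Brd9* difference from -0.37 to 0.055 with a library left out. The *Egr1* difference was -0.26 after the correction with or without the block, and -0.022 to 0.16 with a library left out. The *Chordc1* difference was not near 0 in the main fit, where it was called at -1.09. It changed sign too, to 0.067 after the correction and 0.054 with the block as well. Of 1320 comparisons of single genes with an alternative, these among them, 1059 kept direction and side of the threshold, 243 lost the call, 3 gained it and 15 changed direction. *Mt2* with Zn lost its call without scr Zn replicate 2 (edgeR adjusted p = 0.051) and at the fold minimum.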
